A study of Mus musculus with 40 samples.

Results

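The genes described here are 9 genes of B cells, immunoglobulins and mucosal antibody transport, Ighm, Igha, Igkc, Jchain, Pigr, Mzb1, Cd79a, Cd79b and Ms4a1, out of 53647 genes in the deposited tables. They were given as a list, taken up by symbol in both count tables, and read in all 40 libraries with most weight on the adult and P0 larynx. All 9 passed the filter on low values among the 36495 genes tested. They were chosen by their measured counts in the adult larynx against the P0 larynx, so that difference is given as a description with no test, and tests of the 9 genes were kept to other comparisons.

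RNA was sequenced in bulk from tissue pieces of wild-type FVB/N mice, namely adult larynx (6 to 8 weeks) and P0 larynx (2 libraries each), and larynx, trachea and esophagus at 5 embryonic ages between E10.5 and E18.5 (36 libraries). The labels call the laryngeal piece primitive laryngopharynx at the youngest age, and larynx is used here for all. They call it vocal fold in every index library and larynx in the other short-code libraries (both kinds are defined below). Kind of library and label of the piece thus go together in larynx. Embryonic tissue was pooled from 10 animals, or from 20 at E15.5, and pooling at P0 and in adults was not stated in the sources used here. The study describes the 2 libraries of a group as biological replicates, and whether they came from separate litters was not stated. No allele or agent separates the groups. Library names end either in a 6-base index (index libraries, 10: adult, P0 and 2 per organ at E15.5) or in a short code (short-code libraries, 30, all embryonic), and total counts ran between 3286403 and 35831491 per library.

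Immunoglobulins are made of heavy and light chains, each with a constant region and a variable region joined by gene rearrangement in B cells. On the B cell surface, IgM is held with the signalling pair CD79A and CD79B, and plasma cells of mucosal tissues secrete IgA and IgM that the J chain links into polymers. The polymeric immunoglobulin receptor, encoded by Pigr, is made by mucosal epithelial cells, which use it to carry these polymers from the tissue side into the secretions of airway, gut and glands. IgA plasma cells of such tissues appear mainly after birth.

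In GRCm39 the heavy chain constant genes Ighm (chr12:113382178-113386350) and Igha (chr12:113218450-113223856) lie on the minus strand, and the kappa constant gene Igkc (chr6:70703419-70703950) on the plus strand. Jchain lies at chr5:88667668-88675750 on the minus strand and Pigr at chr1:130754397-130779986 on the plus strand. Among the B cell genes, Cd79a lies at chr7:24596740-24601622 on the plus strand, Cd79b at chr11:106202167-106205588 and Ms4a1 at chr19:11227039-11243605 on the minus strand. Pigr, Igkc and Ms4a1 each overlap an annotated long noncoding gene (Gm15848, Gm30211 and 4930526L06Rik). No source states that strand was used in counting, and counts of such overlapping genes are uncertain.

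RefSeq promoter windows (GRCm38.p6) were matched for 3 of the 9 genes, and the 250 bases before each start are shown because Pigr was the one gene of the list called in any test, with the other matched genes beside it. Capitals mark the E-box CACGTG, the only one of 4 searched motifs found in any of the 3 windows.
Pigr, chr1:130826434-130826683, plus strand: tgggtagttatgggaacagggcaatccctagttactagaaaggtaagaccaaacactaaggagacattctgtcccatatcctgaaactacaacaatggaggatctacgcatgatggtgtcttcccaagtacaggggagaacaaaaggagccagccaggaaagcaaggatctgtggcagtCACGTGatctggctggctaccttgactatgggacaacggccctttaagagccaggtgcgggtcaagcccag
Jchain, chr5:88527898-88528147, minus strand: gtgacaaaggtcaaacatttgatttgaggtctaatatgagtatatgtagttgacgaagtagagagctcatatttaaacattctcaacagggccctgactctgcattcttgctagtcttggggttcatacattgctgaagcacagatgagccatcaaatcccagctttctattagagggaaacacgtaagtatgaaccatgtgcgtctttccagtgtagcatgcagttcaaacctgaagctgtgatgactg
Cd79a, chr7:24897247-24897496, plus strand: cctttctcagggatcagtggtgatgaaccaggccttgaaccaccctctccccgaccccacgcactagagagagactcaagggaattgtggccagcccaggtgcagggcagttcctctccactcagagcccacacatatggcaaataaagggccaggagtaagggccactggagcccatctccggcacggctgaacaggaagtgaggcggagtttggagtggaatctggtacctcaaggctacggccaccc
The E-box of Pigr began 71 bases before the start, and 7.15% of all 32851 windows of 300 bases hold this motif on either strand. The octamer ATGCAAAT (1.74% of windows), the interferon-response core (TTTC, any 2 bases, TTTC; 3.44%) and the EBF core (TCCC, any 2 bases, GGGA; 0.904%), searched on both strands, gave no match in these 3 windows. These are matches of letters only, and no binding was measured.

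Several libraries stood apart. Index library 2 of the E15.5 esophagus held 1303755 counts of the squamous keratin Krt13, against 25126 in index library 1, and its values below are given apart. That difference within a group puts the label of this library in doubt, and the label was kept. All groups shared one estimate of spread in the test. Without this library more genes were called in several comparisons, as listed at the end, so calls and shares below depend on it. T cell transcripts were high at E13.5 in the first library of each organ and at E15.5 in the second short-code tracheal library. Olfactory receptor genes with counts numbered 713 to 1206 in 3 short-code libraries (the second of E11.5 larynx, of E15.5 larynx and of E15.5 trachea), against 82 to 326 in the other 37. Index and short-code libraries of E15.5 differed in 26.4% of all genes tested. Over all ages, mitochondrial ribosomal RNA made up 0.05 to 0.196% of counts in index libraries and 9.3 to 32.2% in short-code libraries. Levels set side by side across the 2 kinds are therefore not strictly comparable. The Tg gene of the thyroid had 149 and 110 counts in adult larynx, against 147460 and 200755 in P0 larynx, so thyroid transcripts were far scarcer in the adult pieces. In bulk tissue, fewer cells of a type and less RNA per cell cannot be told apart.

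Ighm, the constant region of the IgM heavy chain, had more counts than any other constant region gene in 40 of 40 libraries. Adult larynx held 1079 and 1214 Ighm counts, against 71 and 52 in P0 larynx. Normalized counts were 868 and 784 in adult larynx, against 39.2 and 37.01 in P0 larynx, with a fitted log2 change of 4.43 (SE 0.545, n = 2 each, no test). The 38 libraries other than adult held between 13.9 and 244 normalized counts, so both adult libraries stood above all of them. Only Ighm and Pigr of the 9 genes did so, as did 3.43% of all genes tested, and nothing is read from this count because the adult libraries entered the choice of genes.

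Igha, the constant region of the IgA heavy chain, was counted 20 and 22 times in adult larynx, against 0 and 0 in P0 larynx. With a floor of 3 counts per library for P0, the adult level was at least 8.0-fold higher. Igkc, the constant region of the kappa light chain that most mouse antibodies carry, had 15 and 30 counts in adult larynx, against 4 and 2 in P0 larynx. Summed and scaled to library size, the adult count of Igkc was 8.65 times that at P0. These are small numbers beside Ighm: the ratio of Ighm to Igkc counts was 71.9 and 40.5 in the adult libraries, against 17.8 and 26 in the P0 libraries.

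On a scale of counts per kilobase of exon, with each library brought to the same total, Ighm stood at 80.2 and 68.0 in adult larynx, and Igkc at 3.95 and 5.95. Igha on the same scale was 1.05 and 0.871 in adult larynx. A complete antibody holds heavy and light chains in equal number, and Ighm lay above Igkc per length in 40 of 40 libraries. Ighm made up 95.7% of the heavy constant counts in adult library 1 (Wilson 95% interval 94.4 to 96.8%) and 96.8% in adult library 2 (95.7 to 97.6%), against 93.4% (85.5 to 97.2%) and 94.5% (85.1 to 98.1%) in the P0 libraries. These intervals cover counting error only.

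Variable segments were scarce next to the IgM constant region. All 183 heavy segments in the tables summed to 12 and 8 counts in adult larynx, against 1 and 3 in P0 larynx. The 160 kappa segments summed to 14 and 21 counts in adult larynx, against 1 and 0 in P0 larynx. The adult heavy counts were spread over 8 and 4 segments, none with more than 3 counts, and were led by Ighv5-17 (2 and 3 counts), Ighv3-1 (0 and 3) and Ighv4-2 (3 and 0). The kappa counts were led by Igkv1-110 (1 and 7 counts in the adult libraries), Igkv1-117 (4 and 0) and Igkv1-135 (3 and 0). RSEM divides reads among near-identical segments, so counts of single segments are uncertain. Across the other 38 libraries the sum over heavy segments had a median of 0 and a highest value of 30, reached in the second library of E11.5 larynx, one of those with many olfactory receptor genes.

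**Figure D1:**
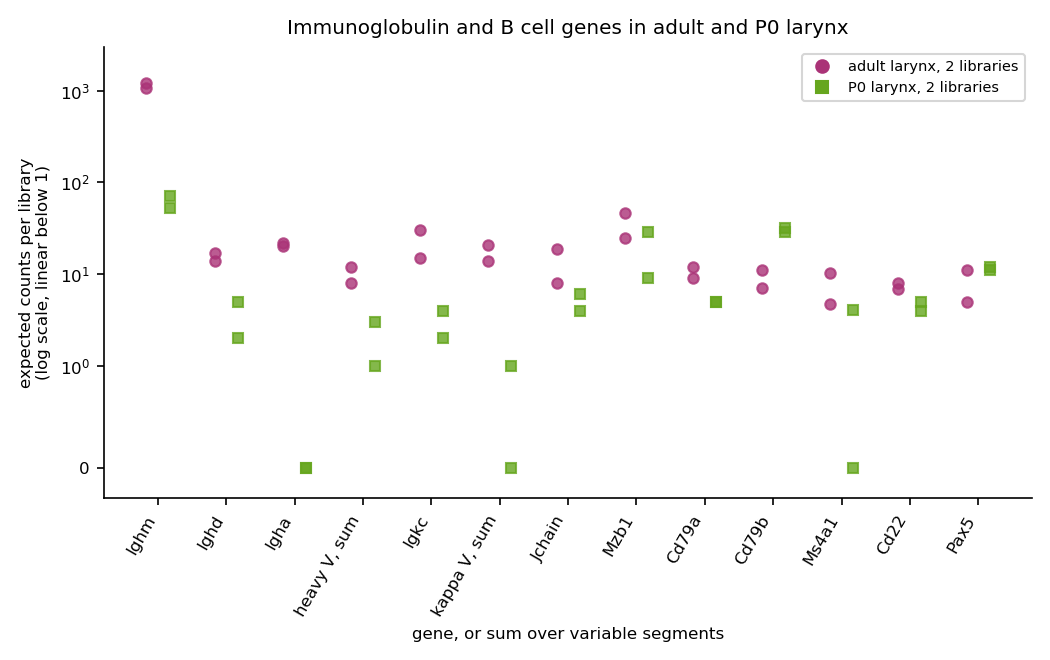
Expected counts per library (log scale, linear below 1) of immunoglobulin and B cell genes and of summed variable segments, with 2 adult larynx libraries (circles, left) and 2 P0 larynx libraries (squares, right) for each. Ighm alone passes 1000 counts in the adult, while the other genes and the summed variable segments stay at 46 counts or fewer in both groups.

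Genes that define B cells were at low counts in both larynx groups. Cd79a, whose product signals for the B cell receptor, had 9 and 12 counts in adult larynx, against 5 and 5 in P0 larynx. Ms4a1, a membrane protein of mature B cells, had 10.3 and 4.70 counts in adult larynx, against 0 and 4.01 in P0 larynx. Cd79b, the partner of Cd79a, ran the other way, with 7 and 11 counts in adult larynx, against 29 and 32 in P0 larynx. Its normalized counts were 5.63 and 7.10 in adult larynx, against 15.99 and 22.8 in P0 larynx (log2 change -1.58, SE 0.629, no test). None of Cd79a, Cd79b, Ms4a1 and Cd22 passed 12 counts in adult larynx, while Ighm passed 1000, so these defining markers go against reading the list as a B cell signal, and it is better called by its leading genes, Pigr and Ighm.

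Jchain, the joining chain of polymeric IgA and IgM, had 8 and 19 counts in adult larynx, against 6 and 4 in P0 larynx. Mzb1, an endoplasmic reticulum protein of plasma cells and marginal zone B cells, had 25 and 46 counts in adult larynx, against 29 and 9.07 in P0 larynx. In normalized counts Mzb1 was 20.1 and 29.7 in adult larynx, against 15.99 and 6.41 in P0 larynx. In all, 8 of the 9 genes had both adult libraries above both P0 libraries, Cd79b being the exception, and so did 23.3% of all genes tested. The median log2 change of the 9 genes was 1.96, against 0 for all genes tested. By adjusted p, 4.13% of all genes differed between these groups. Because this contrast chose the 9 genes, nothing is read from these counts.

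Pigr, the epithelial receptor for polymeric IgA and IgM, was the most abundant of the 9 genes in the adult larynx. It had 2976 and 8020 counts in adult larynx, against 1222 and 458 in P0 larynx. Normalized counts were 2395 and 5178 in adult larynx, against 674 and 326 in P0 larynx, with a log2 change of 2.92 (SE 1.02, no test). On the per-length scale, Pigr stood at 103 and 209 in adult larynx, against 32.9 and 17.5 in P0 larynx. At P0, where Igha was not counted, Pigr had more counts than each of the other 8 genes. The groups did not overlap, and the 2 libraries of each age lay over 2-fold apart.

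**Figure D2:**
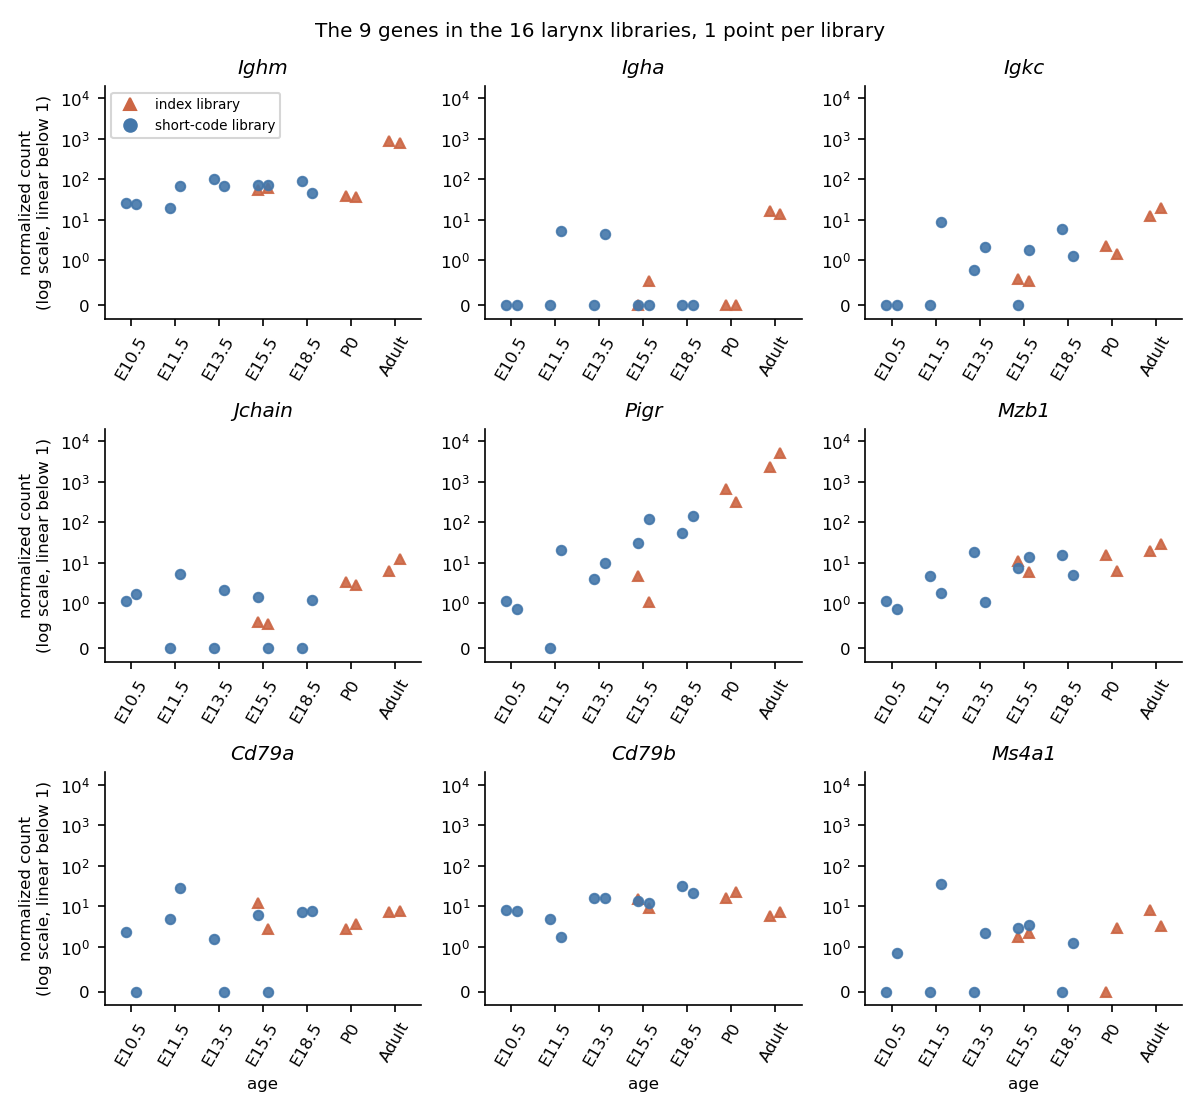
Normalized counts (log scale, linear below 1) of the 9 genes in the 16 larynx libraries from E10.5 to adult, 1 point per library, with triangles for index and circles for short-code libraries. Pigr reaches 5178 in an adult library and at E15.5 lies lower in index libraries (labelled vocal fold) than in short-code libraries (labelled larynx). Ighm stays between 19.1 and 98.4 until P0 and stands at 784 and 868 in the adult. Its lowest value, in the first library of E11.5 larynx, rests on 4 counts. Cd79a, Cd79b and Ms4a1 stay under 36 at all ages.

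Among the younger stages, Pigr was the one gene of the 9 that was called. In larynx at P0 it had normalized counts of 674 and 326, against 4.68 and 1.10 in index libraries of the E15.5 larynx. The log2 change was 7.397 (SE 1.35, adjusted p = 0.0163, edgeR quasi-likelihood test), and 1 of 9 members was called, against 0.559% of all genes tested. The P0 libraries also entered the contrast that chose the genes. The call was lost without P0 library 1 (adjusted p = 0.081), without E15.5 index library 1 (adjusted p = 0.137) and without E15.5 index library 2 (adjusted p = 0.433), and held without P0 library 2 (adjusted p = 0.0482). Pigr had 31.1 and 125 normalized counts in the short-code libraries of the E15.5 larynx, well above the index libraries of that age. Those short-code pieces are labelled larynx and the index pieces vocal fold, so kind of library and piece cannot be told apart here. With both kinds pooled at E15.5 the log2 change was 3.74 (adjusted p = 0.464 in the edgeR test).

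Within short-code libraries, Pigr rose in all 3 organs between E13.5 and E18.5. Whether the 3 organs of an age came from the same embryos was not stated, so these rises may not be independent. In larynx it had 55.4 and 141 normalized counts at E18.5, against 3.97 and 9.73 at E13.5, a log2 change of 3.88 (SE 1.22, adjusted p = 0.0453). In trachea it had 76.0 and 127 normalized counts at E18.5, against 0.767 and 0 at E13.5. In esophagus it had 65.5 and 186 normalized counts at E18.5, against 0 and 0.889 at E13.5. The groups did not overlap in any organ, and the test called Pigr in trachea (log2 change 7.38, SE 1.73, adjusted p = 0.00507) and esophagus (7.83, SE 1.70, adjusted p = 0.0031). One Pigr count was seen at E13.5 in each of these 2 organs, so their fitted changes depend on it. The ratio of summed counts at equal library size was 207 in trachea (exact 95% interval of counting error 36.7 to 8210) and 286 in esophagus (50.6 to 11400), against 15.9 in larynx (9.19 to 29.8).

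In each organ 1 of 9 members was called between E13.5 and E18.5, against 8.55% of all genes in larynx, 10.8% in trachea and 10.1% in esophagus. The laryngeal call was lost without any 1 of its 4 libraries (adjusted p of Pigr = 0.0587 and 0.304 without E18.5 libraries 1 and 2, and 0.327 and 0.174 without E13.5 libraries 1 and 2). The tracheal call was lost without E13.5 library 1 (adjusted p of Pigr = 0.0691) or E13.5 library 2 (0.0721), and the esophageal call without E13.5 library 1 (0.0733). Without the 4 libraries high in T cell transcripts, the adjusted p of Pigr was 0.331 in larynx, 0.0806 in trachea and 0.085 in esophagus. The difference between organs in this step was tested for the 9 genes over 3 pairs of organs with edgeR, and 0 of 27 tests passed, with 0 at an unadjusted p under 0.05 and 0 by DESeq2. Of all genes, 0.00822% were called between larynx and esophagus and 0% in the other pairs. For Pigr the step differed by -3.96 (SE 2.36) between larynx and esophagus on the log2 scale, and a difference between organs is not shown.

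**Figure D3:**
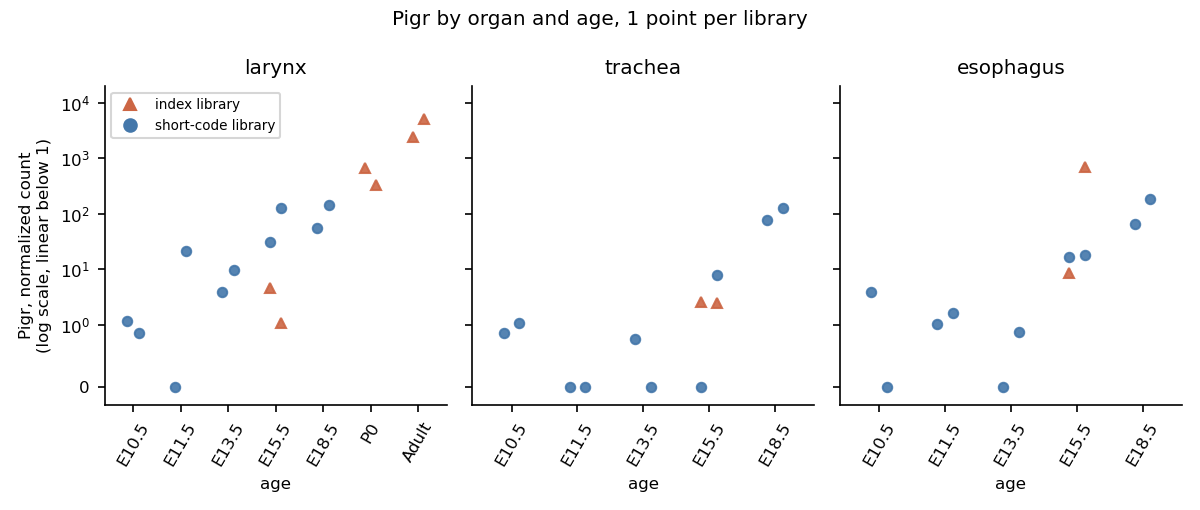
Pigr normalized counts (log scale, linear below 1) in larynx, trachea and esophagus from E10.5 to adult, 1 point per library, with triangles for index and circles for short-code libraries. Values stay at 21.2 or below through E13.5 and reach 55.4 to 186 in the 6 libraries of E18.5, and index library 2 of the E15.5 esophagus stands apart at 690.

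At E18.5 no difference between organs was shown for Pigr. The larynx was set against the mean of trachea and esophagus (log2 difference -0.19, SE 0.866, adjusted p = 1 in the edgeR test), and the trachea against the esophagus (-0.31, SE 0.991, adjusted p = 1). No member was called in either comparison, with 0 at an unadjusted p under 0.05 and 0 by DESeq2, and the percentages of all genes called were 0.011% and 0%. The share for larynx against the other organs rose without the library with the doubtful label, as listed at the end. With standard errors near 1 on the log2 scale, a 2-fold difference would not have been detectable.

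One library labelled embryonic, the one with the doubtful label, held more Igha counts than either adult library. In the E15.5 esophagus, index library 2 held 924 Pigr counts, 39 Igha counts and 18 Igkc counts, while index library 1 held 21.4, 0 and 1 of them. Ighm had 239 counts in index library 2 and 120 in index library 1. Igha was otherwise counted at most 4 times in any embryonic library, and was at 0 in 32 of the 36. Among index minus short-code libraries at E15.5, no member was called by edgeR or DESeq2 (0 at an unadjusted p under 0.05), against 26.4% of all genes. Without that index library 2, Pigr was called lower in index libraries (log2 difference -2.12, adjusted p = 0.0157).

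Ighm was counted in 36 of 36 embryonic libraries, at 13.9 to 25.98 normalized counts in the 6 libraries of E10.5 and 67.1 to 156 in the 6 of E13.5. In the same 18 libraries from E10.5 to E13.5, Igkc was at 0 in 13. Every E13.5 library was higher than every E10.5 library for Ighm and also for Cd79b, 2 of 9 members, against 8.92% of all genes tested, and this step was not tested. Between E13.5 and E18.5 Ighm was not called in any organ, with log2 changes of -0.30 (SE 0.486) in larynx, -0.74 (SE 0.484) in trachea and -0.54 (SE 0.484) in esophagus. The leukocyte gene Ptprc had 25 to 1465 normalized counts over the 36 embryonic libraries, with its highest value in the second short-code library of E15.5 trachea, where Ighm was also highest at 244. Whether leukocyte content has a part in these Ighm levels was not tested.

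Cd79b, the partner of Cd79a, had at least 1 count in 40 of 40 libraries and stood above Cd79a per length in 36 of 40. Its normalized counts were 5.36 to 14.7 at E10.5, 15.9 to 43.7 at E13.5 and 21.1 to 36.1 at E18.5 in short-code libraries of the 3 organs. Cd79a was highest in the first short-code library of E15.5 trachea at 35.7 normalized counts. Ms4a1 was highest in the second library of E11.5 larynx at 35.3 normalized counts, the library with the most olfactory receptor genes. No embryonic comparison called Cd79a, Cd79b or Ms4a1.

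Mzb1 (chr18:35780319-35782642, minus strand, overlapping the coding gene Gm50318 on its own strand) was highest in embryonic libraries that were also high in T cell transcripts. At E13.5 it had 53.4 normalized counts in library 1 and 0 in library 2 of the esophagus, 68.3 and 0 in the trachea, and 19.04 and 1.08 in the larynx. Rag1, a recombinase of developing lymphocytes, had 274 and 11.6 normalized counts in the same esophageal libraries, 361 and 1.48 in the tracheal and 124.5 and 2.16 in the laryngeal ones. The 9 T cell markers summed to 851 and 103 normalized counts in these esophageal libraries, 961 and 205 in the tracheal and 317 and 84.4 in the laryngeal ones, and Cd3e, a subunit of the T cell receptor, was at 0 in library 2 of all 3 organs. The liver transcript Alb split the same libraries, with 13400 and 1315 normalized counts in the esophageal, 12150 and 258 in the tracheal and 6075 and 887 in the laryngeal ones. In the second short-code library of E15.5 trachea, Mzb1 had 61.8 and Rag1 3693 normalized counts. Igkc was at 0 or 1 count in library 1 of all 3 organs at E13.5. The part of T cells or liver tissue in the Mzb1 counts was not tested, and Mzb1 was not called between E13.5 and E18.5 in any organ (adjusted p = 1 in larynx, 0.331 in trachea and 0.227 in esophagus).

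**Figure D4:**
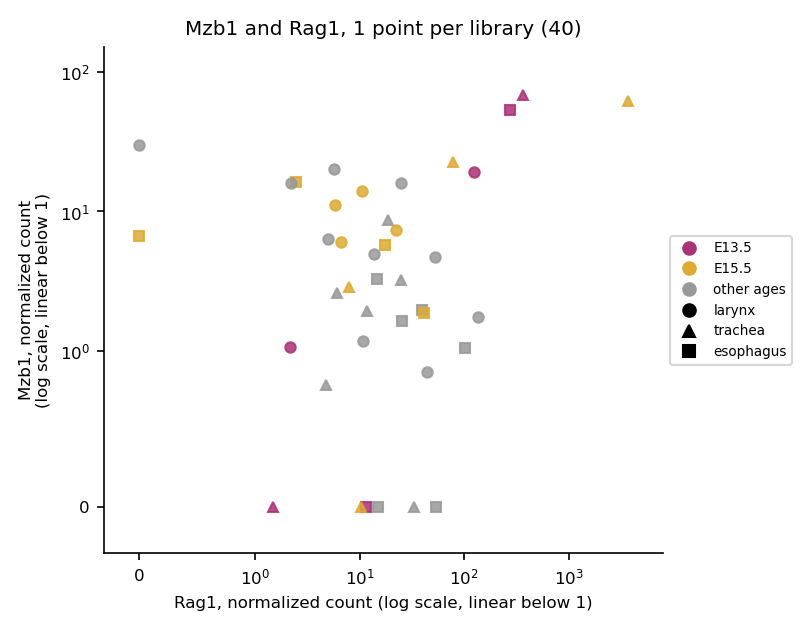
Mzb1 against Rag1 normalized counts (both log scale, linear below 1) in the 40 libraries, with colour for E13.5, E15.5 and other ages and shape for organ. The highest Mzb1 values, 53.4, 61.8 and 68.3, belong to libraries with 274, 3693 and 361 Rag1 counts, and adult larynx lies at 20.1 and 29.7 Mzb1 with at most 5.63 Rag1.

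Genes related to the 9 were read from 7 lists, of which 70 genes were tested between adult and P0 larynx, a comparison in which 2.08% of all genes were called higher and 2.04% lower. Unlike the 9 genes, these 70 were not chosen by this contrast, though earlier results of it were known. By this edgeR test 4 of the 70 were higher and 1 was lower. More of the 70 were called higher without the library with the doubtful label, as listed at the end. Of the 14 genes of B cell surface and signalling none was called, with 2 at an unadjusted p under 0.05 and 1 by DESeq2, and the median log2 change was 0.63. The adaptor Blnk led this list with 600 and 644 normalized counts in adult larynx, against 92.1 and 65.5 in P0 larynx (adjusted p = 0.092). B cell markers, among them Cd79a and Cd22, summed to 41.0 and 27.8 in adult larynx, against 35.3 and 42.0 in P0 larynx. Whether the Blnk counts came from B cells was not tested. The tetraspanin Cd37 had 65.2 and 62.6 in adult larynx and 50.2 and 38.4 in P0 larynx.

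None of the 8 genes of B cell transcription was called (0 at an unadjusted p under 0.05 and 0 by DESeq2), with a median log2 change of -0.32. The most abundant were Ebf1 (442 and 415 normalized counts in adult larynx, 457 and 656 in P0 larynx) and Bach2 (215 and 196 in adult larynx, 276 and 342 in P0 larynx), both also made outside the B lineage. None of the 5 precursor B cell genes tested was called (0 at an unadjusted p under 0.05 and 0 by DESeq2). Vpreb3, of the surrogate light chain family, had 78.1 and 103 normalized counts in adult larynx, against 63.4 and 34.2 in P0 larynx, and Rag1 had 5.63 and 0 in adult larynx, against 2.21 and 4.98 in P0 larynx. Of 8 other constant regions tested none was called, with 1 at an unadjusted p under 0.05 and 0 by DESeq2. Ighd, the constant region of IgD, had 14 and 17 counts in adult larynx, against 5 and 2 in P0 larynx, and Ighg1 had 11 and 0 in adult larynx, against 0 and 0 in P0 larynx.

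Of 9 plasma cell genes, Fkbp11, a foldase of secretory cells, was lower in the adult (log2 change -1.62, SE 0.404, adjusted p = 0.0185), with 48.3 and 78.8 normalized counts in adult larynx, against 221 and 170 in P0 larynx. None was higher by edgeR, although 4 had an unadjusted p under 0.05 and 1 was called by DESeq2. The most abundant, Sdc1 (4800 and 5404 normalized counts in adult larynx, 2444 and 2152 in P0 larynx) and Xbp1 (2867 and 3382 in adult larynx, 2086 and 1737 in P0 larynx), are also made by epithelial cells. Tnfrsf17, a receptor that marks plasma cells, had 2 and 4 counts in adult larynx, against 1 and 1 in P0 larynx.

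In the main fit, the called rises lay among chemokines and secreted mucosal proteins. Ccl28, an epithelial chemokine that draws IgA plasma cells to mucosal tissue, had 649 and 772 normalized counts in adult larynx, against 116 and 127 in P0 larynx (log2 change 2.55, SE 0.577, adjusted p = 0.00925). Cxcl13, a chemokine that draws B cells into follicles, had 195 and 167 in adult larynx, against 11.6 and 12.1 in P0 larynx (3.92, SE 0.798, adjusted p = 0.00399). These were 2 of the 12 genes of IgA induction and homing. Itgb7, an integrin chain of gut-homing lymphocytes and the next most abundant of the list, had 221 and 277 in adult larynx, against 97.0 and 67.6 in P0 larynx, and was not called. Of receptors for these chemokines, only Ccr10 and Cxcr5 were read, and both stayed at low counts. Ccr10 had 11 and 3 counts in adult larynx, against 8 and 6 in P0 larynx. Cxcr5 had 4 and 2 in adult larynx, against 3 and 2 in P0 larynx.

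Among 14 secretory mucosa genes, Bpifb1, an antimicrobial protein of airway secretions, had 19170 and 49750 normalized counts in adult larynx, against 21.5 and 26.3 in P0 larynx (log2 change 10.49, SE 1.89, adjusted p = 0.0018). Lyz1, a lysozyme that shares sequence with Lyz2, had 5177 and 14930 in adult larynx, against 338 and 376 in P0 larynx (4.81, SE 1.34, adjusted p = 0.0413). The most abundant of the list were not called: lactoferrin, Ltf (138600 and 208500 normalized counts in adult larynx, 11330 and 12210 in P0 larynx, adjusted p = 0.0888) and Dmbt1 (68960 and 97840 in adult larynx, 4199 and 3642 in P0 larynx, adjusted p = 0.147). The median log2 change of this list was -0.23. Markers of other cells were read beside these lists. The 5 airway epithelium markers summed to 50770 to 54780 normalized counts in adult larynx and 14790 to 16300 in P0 larynx, with 0 called by edgeR or DESeq2 (1 at an unadjusted p under 0.05) and a median log2 change of 0.42. The 8 myeloid markers summed to 46910 to 84120 in adult larynx and 5833 to 5958 in P0 larynx, but their median log2 change was 0.05, with Lyz2 called higher (4.60) and the macrophage receptor Mrc1 called lower (-1.12). Ptprc had 281 to 285 in adult larynx and 127 to 138 in P0 larynx and was not called. The part of these cells in the results was not tested. Of the 70 genes, 2 were called higher without adult library 1, 2 without adult library 2, 0 without P0 library 1 and 0 without P0 library 2.

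**Figure D5:**
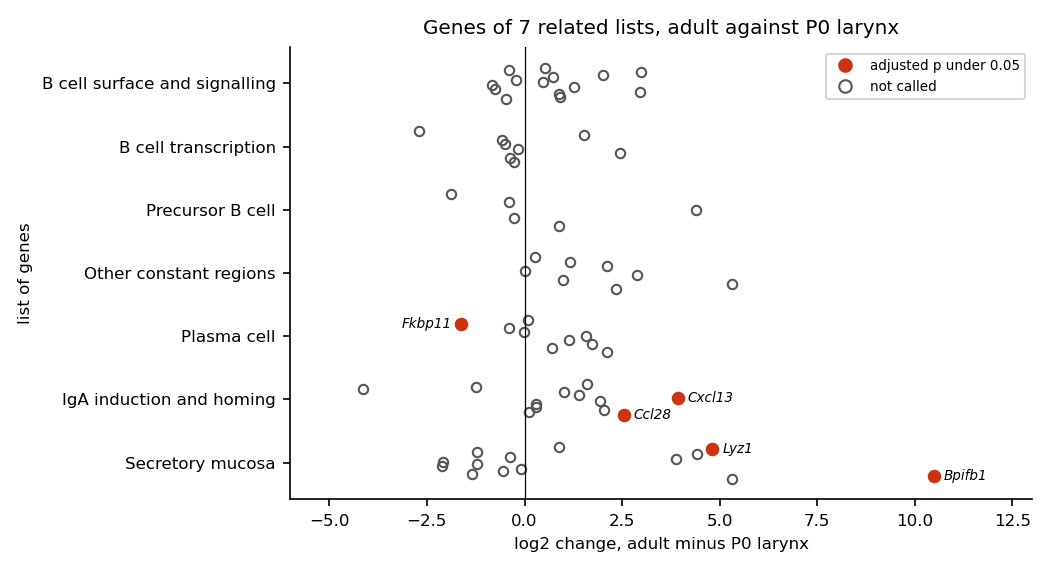
Log2 change from the fit, adult minus P0 larynx, of each tested gene in 7 related lists, with filled points for an adjusted p under 0.05. The 4 genes called higher, Ccl28 (2.55), Cxcl13 (3.92), Lyz1 (4.81) and Bpifb1 (10.49), lie in the lists of IgA induction and secretory mucosa, and Fkbp11 (-1.62) is the one called lower.

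Between E15.5 and P0 in index libraries of the larynx, 3 of 14 secretory mucosa genes were called higher, against 0.356% of all genes. The list summed to 57190 and 110000 normalized counts in P0 larynx, and to 2313 and 2588 in index libraries of the E15.5 larynx. Short-code libraries of the E15.5 larynx held 51900 and 61020, near the P0 sums, so the rise is shown against index libraries only. Kind of library and piece cannot be told apart here. The values below are of index libraries. Ltf averaged 11770 normalized counts in P0 larynx and 174 in E15.5 larynx (log2 change 6.08, SE 1.4, adjusted p = 0.0469). Scgb1a1, a secretoglobin of club cells, averaged 3829 in P0 larynx and 5.38 in E15.5 larynx (9.45, SE 1.9, adjusted p = 0.036). Scgb3a1, another secretoglobin, averaged 10420 in P0 larynx and 42.5 in E15.5 larynx (7.94, SE 1.77, adjusted p = 0.0457). Without any 1 of these 4 libraries none of the 3 calls was made.

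The same genes were read between E13.5 and E18.5. Of the 14 secretory mucosa genes, 5 were higher at E18.5 in larynx, 10 in trachea and 8 in esophagus, and none was lower in any organ, while 5.45%, 6.43% and 6.14% of all genes were called higher in larynx, trachea and esophagus. Ccl28 was higher in all 3 organs, with 46.7 and 63.3 normalized counts at E18.5, against 12.7 and 11.9 at E13.5, in larynx (log2 change 2.15, SE 0.612, adjusted p = 0.0251). Its log2 change was 2.10 in trachea and 2.32 in esophagus (adjusted p = 0.0218 and 0.0113). Cxcl13 ran the other way, with 10.2 and 2.48 normalized counts at E18.5, against 543 and 187 at E13.5, in larynx (log2 change -5.86, SE 0.915, adjusted p = 0.000111). Its log2 change was -5.13 in trachea and -6.24 in esophagus (adjusted p = 0.000186 and 8.88e-05). The adult level of Cxcl13, at 195 and 167 in larynx, lay near the lower of its laryngeal E13.5 values. The adult libraries are index and the E13.5 libraries short-code, so the levels are not strictly comparable.

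Over the 16 larynx libraries, the genes whose log2(CPM + 1) followed Pigr most closely, among 15827 genes with a mean of at least 1 CPM in adult larynx, were Sbpl (r = 0.987), Slc28a3 (0.986), Prss27 (0.985), Sprr2a3 (0.981) and the processed pseudogene Gm4813 (0.978). Those closest to Ighm were Serpinb7 (r = 0.967), Ngb (0.965), Fmo6 (0.963), Cd209a (0.961) and Arl14 (0.953). All 10 had both adult libraries as their highest, and the 16 points share ages and library kinds, so these values of r describe the libraries only. Jchain, at a mean of 0.511 CPM in adult larynx, fell under the minimum and was not compared.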

How the data were processed

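RNA was sequenced from 40 libraries of FVB/N larynx, trachea and esophagus. The authors aligned reads with Bowtie2 2.4.2 and estimated an expected count per gene with RSEM 1.3.3 on GRCm39, and what was deposited is the expected count, not yet normalized. Reads that fit several genes are shared out, which affects immunoglobulin segments and lysozymes. Of 53647 Ensembl identifiers, 52610 were found in GENCODE vM39. Libraries were grouped by organ, age and kind from the labels, in 20 groups of 2.

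Counts were rounded, scaled by median-ratio factors (normalized counts), and genes reaching a normalized count of 1 in 2 or more libraries were kept. One edgeR 4.0.16 quasi-likelihood model (R 4.3.3) with 20 means was fitted to 36495 genes (20 residual degrees of freedom, common dispersion 0.151), with trended dispersions, and p-values were Benjamini-Hochberg adjusted over all genes and called under 0.05. The script was tested on simulated counts. DESeq2 1.42.0, TMM factors, other filters, other sets of libraries and a replicate block were alternatives. Levels per length used the exon union of GENCODE. The members and lists were chosen with earlier results of these data known. Named genes were all 9 members, and from each list the 2 with the highest adult level and up to 2 with the largest change among those called; Cd22, Alb, Lyz2, Mrc1, Tnfrsf17, Cxcr5, Ccr10, Ptprc, Cd3e, Tg, Krt13, Scgb1a1 and Scgb3a1 were added after their values were seen. One marker is not reported here. Replicate numbers were not taken to pair libraries, since no label says that they mark shared animals.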

Additional observations from a re-analysis of the deposited data

How the results depend on the processing

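The settings were compared mainly by how many genes were called, a count that has no direction. With a replicate block, 1 member was called in each of the steps of larynx, trachea and esophagus between E13.5 and E18.5 and 1 between P0 and E15.5, as without it, and 2 related genes were called higher at P0 against E15.5, against 3 without it. Deviations of same-numbered libraries correlated at -0.138 to 0.093 between ages of 1 organ and at 0.165 to 0.24 between organs at E18.5, a hint from the data that numbers may be shared across organs of an age. The block was 1 shift shared by all 40 libraries, so it cannot account for numbers shared within an age. With it the E18.5 comparisons between organs called 0 members, and nothing is read from that. Members called changed as follows. Without the filter on low counts, 2 were called in the esophagus (Mzb1 beside Pigr) and 1 of 27 for the difference between organs. With 17 means that pool both kinds of library at E15.5, 0 were called in larynx, 0 in trachea and 0 between P0 and E15.5, and with index libraries only 0 between P0 and E15.5. Leaving out the 4 libraries high in T cell transcripts, called thymocyte libraries below, was an alternative chosen after seeing the data. It left 1 library at E13.5 in larynx, trachea and esophagus, so its calls of members in those steps are not counted here. Without the second index library of E15.5 esophagus, also chosen after seeing the data, 1 was called between index and short-code libraries. Leaving out 1 library at a time gave 0 members in larynx, 0 to 1 in trachea, 0 to 1 in esophagus, 0 to 1 between P0 and E15.5 and 0 to 1 between index and short-code libraries.

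Related genes called higher in the adult (4) numbered 11 without the filter, 1 with 17 means, 0 with index libraries only, 11 with that esophageal library left out and 0 to 2 without 1 of the 4 libraries compared. Related genes called higher at P0 against E15.5 (3) numbered 15 without the filter, 5 with a minimum of 10, 10 with DESeq2, 0 with 17 means, 7 without the 3 olfactory libraries, 0 with index libraries only, 10 with the esophageal library left out, 7 without the 4 thymocyte libraries and 0 without 1 of the 4 libraries compared. Over all genes, the P0 to E15.5 comparison called 204, against 1651 with DESeq2, 1992 without the filter, 427 with a minimum of 10, 7 with 17 means, 345 without the olfactory libraries and 2289 or 2331 without index library 2 or 1 of E15.5 esophagus. The adult comparison called 1506, against 3149 with DESeq2, 2930 without the filter, 579 with 17 means, 3 with index libraries only and 3671 or 3712 without these. The E18.5 to E13.5 comparison called 3120 genes in larynx, 3954 in trachea and 3670 in esophagus, against 1557, 2190 and 1830 with 17 means, 1607, 2589 and 1407 without the 4 thymocyte libraries, 5264, 6249 and 5778 without index library 2 of E15.5 esophagus, and 4897 in larynx with DESeq2. At E18.5, larynx against the other organs called 4, against 280 with DESeq2, 1122 without the filter, 7 with a minimum of 10, 174 with short-code libraries only, 36 without the olfactory, 42 without the thymocyte and 369 without the esophageal library, and 0 with 17 means. Trachea against esophagus called 0, against 25 with DESeq2, 324 without the filter, 1 with a minimum of 10 and 1 without the thymocyte libraries. The causes were not tested. With 2 libraries per group, the standard error of the adult change was over 1 on the log2 scale for all members but Ighm and Cd79b.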
